A study of Mus musculus with 18 samples.

Results

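Testis RNA of mice at day 40 after birth, an age the labels call puberty, was compared between 3 arrays labelled Plin1 knockout and 3 arrays labelled wild type. These 6 arrays, from male mice, were chosen by their titles out of 18 one-colour (Cy3) Agilent arrays that also cover days 21 and 60 in the same 3 against 3 layout. The sources used here give neither the strain nor the construction of the knockout allele, and do not say whether the arrays come from separate animals. The p-values therefore measure the spread between these arrays, which may be technical. A level is the log2 signal of a probe after its array's 75th percentile has been subtracted, and a difference of 1 is 2-fold. Differences are arrays labelled knockout minus arrays labelled wild type, and a difference was called where its limma p, adjusted by Benjamini-Hochberg over all probes tested, was under 0.05.

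Perilipin 1, the product of Plin1, coats the lipid droplets of fat cells, where it shields stored triglyceride from lipases until hormonal signals release it. Steroid-making cells such as the Leydig cells of the testis also keep droplets, filled with cholesteryl esters that feed testosterone synthesis. Around puberty the mouse testis completes its first waves of sperm formation while Leydig cells take on their adult output of androgen.

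The 6 arrays were alike in depth of signal. Spots well above background made up 84.8 ± 1.05% (SD, n = 3) in the arrays labelled knockout and 85.0 ± 1.34% in those labelled wild type, and no spot was saturated. Arrays correlated over probes at 0.992 to 0.995 within the groups and at 0.990 to 0.994 between them. The first principal component, with 33.4% of the variance, separated the labels. It ran from -29.9 to -25.3 in the arrays labelled knockout and was 43.7, 25.7 and 12.1 in wild-type-labelled replicates 1, 2 and 3. Replicates 1 and 2 of the wild-type label were on 1 slide, and replicate 3 shared another slide with all arrays labelled knockout, so a difference within slide is that of 3 arrays against 1. Genes that define testis cells were bright in every array: Cyp17a1, a Leydig cell steroid enzyme, lay at 2.79 to 3.70, Cst12, a Sertoli cell cystatin, at 3.73 to 4.28, and Catsperz, a subunit of the sperm calcium channel, at 6.30 to 6.69.

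Plin1 was the 1 probe called among 35638 (0.00281%), or 0.00586% of the 17074 genes, and its signal ran against the label. The arrays labelled knockout read -0.22, -0.11 and 0.05, and the arrays labelled wild type read -2.40, -2.55 and -2.32. The groups did not overlap, and Plin1 stood higher under the knockout label by 2.33 on the log2 scale, or 5.02-fold (SE 0.24, limma adjusted p = 0.00509). Within slide the difference was 2.23. Which part of the transcript this probe reads relative to the deleted part is not known here, so it neither bears out nor contradicts a loss of the protein, and groups are named by label throughout. A fixed slide block gave Plin1 an adjusted p of 0.330. Leaving out replicate 2 of the wild-type label or replicate 3 of the knockout label gave 2.26 in both cases (limma adjusted p = 0.0642 and 0.0637) and left 0 probes called. After normexp background correction it was 1.96 (adjusted p = 0.178). The difference was 1.72 at day 21 and 2.75 at day 60, and neither was called different from that at day 40 (limma adjusted p = 0.423 and 0.779).

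**Figure D1:**
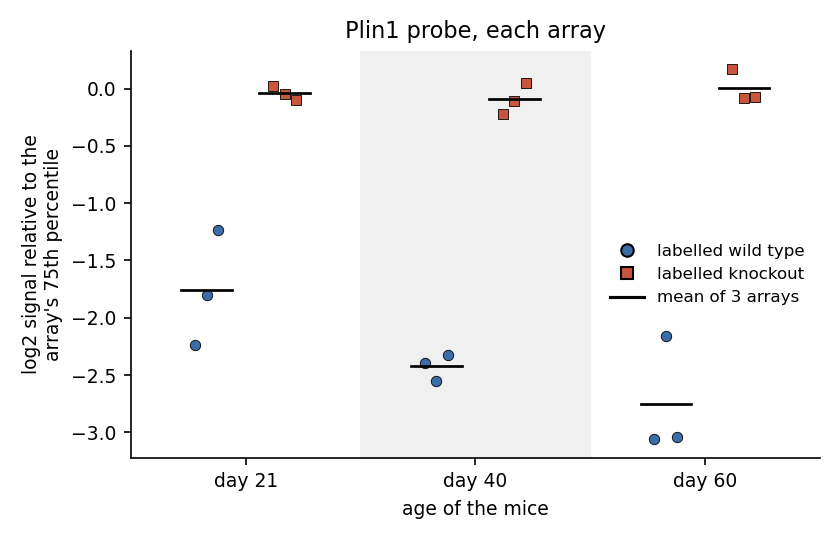
Level of the Plin1 probe (log2 signal relative to the 75th percentile of the array) on each of the 18 arrays by age, with circles for arrays labelled wild type, squares for arrays labelled knockout and lines at the mean of 3 arrays. At day 40, shaded, the squares lie between -0.22 and 0.05 and the circles between -2.55 and -2.32.

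The 250 bases before the Plin1 start site in RefSeq (GRCm38.p6, chr7:79732777-79733026, minus strand, written 5′ to 3′) are shown because Plin1 is the only gene called.
Plin1 upstream: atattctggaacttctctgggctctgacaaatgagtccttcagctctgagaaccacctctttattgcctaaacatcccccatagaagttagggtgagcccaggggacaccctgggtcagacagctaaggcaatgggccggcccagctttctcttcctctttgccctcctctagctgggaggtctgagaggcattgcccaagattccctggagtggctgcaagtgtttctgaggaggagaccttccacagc
The nuclear receptor core motif AGGTCA, searched on both strands, had 0 matches in this window, and 14.0% of 32851 RefSeq upstream windows of 250 bases held at least 1. That says only that these letters are not in this window.

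Markers of fat cells were read beside Plin1, since the gene is best known there. The list held 20 markers, of which 18 were measured, 0 were called, 11 lay above 0 and the median difference was 0.03, beside 0.04 over all 17074 genes. The mean level of the list was -1.66, -1.06 and -2.95 in knockout-labelled replicates 1 to 3 and -1.46, -2.48 and -1.66 in wild-type-labelled replicates 1 to 3. Knockout-labelled replicate 3 had the brightest Plin1 of the 6 arrays and the lowest mean of the fat cell list. The order was the other way in the wild-type label, where replicate 2 had both the dimmest Plin1 and the lowest mean of that list. Cfd, the adipsin gene, lay at 0.07, 1.08 and -6.18 in the arrays labelled knockout and at 1.36, -2.07 and 0.74 in those labelled wild type. Fabp4, a fatty acid carrier of fat cells, lay at 1.44, 2.64 and -3.32 and at 1.50, -1.13 and 1.06. In both labels the array with the lowest Cfd and Fabp4 also had the lowest mean of the list. Both genes are members of the list and enter its mean, so this is not separate evidence. The part of fat cells in the Plin1 difference was not tested.

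The genes nearest to Plin1 on the chromosome and the other droplet genes were not called. Of the neighbours, Kif7, a kinesin of hedgehog signalling, differed by 0.21 (SE 0.14), Pex11a, a peroxisome division factor, by 0.15 (SE 0.09) and Wdr93 by -0.30 (SE 0.08, limma adjusted p = 0.253). The arrays did not overlap for any of these 3 neighbours, with Wdr93 at 0.82, 0.75 and 0.96 against 1.19, 1.09 and 1.15. They overlapped for the other measured neighbours, Fanci, Polg, Rhcg, Ticrr, Mesp1, Mesp2 and Anpep. Anpep had the largest difference of all the neighbours, 0.41 (SE 0.14). Over all genes, 13.4% had every array labelled knockout higher and 7.91% had every one lower. Kif7 had another tested probe, which differed by -0.15 (SE 0.46). Of 23 measured genes of droplet coat and lipolysis, 0 were called and the median difference was -0.04. The arrays did not overlap for 3 of them, beside a background in which 13.4% of all genes had every array labelled knockout higher and 7.91% had every one lower. Those 3 were Mgll, which cleaves monoglycerides, at -0.36, Pnpla2, the first triglyceride lipase of lipolysis, at -0.20, and G0s2, an inhibitor of that lipase, at 0.31. The sign of G0s2 turned after normexp background correction, which moved the median of all probes from 0.03 to -0.22. Of the other perilipins, Plin2 read 1.72, 1.72 and 1.94 against 1.79, 1.64 and 1.83, a difference of 0.04 (SE 0.15). Plin4 read -1.51, -0.77 and -2.47 against -1.02, -2.60 and -1.51. Its difference was 0.13 (SE 0.83), and its arrays scattered widely within both groups.

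Differences elsewhere were mostly small and none passed. The difference exceeded 1 in size for 141 genes, of which 74 were higher and 67 lower under the knockout label. At an unadjusted p under 0.05 stood 3448 probes, or 9.68%. A fit to the 6 day 40 arrays alone, whose spread is that of these arrays only, called 42 probes, 5 higher (0.014%) and 37 lower (0.104%). Of those, 33 were also called with slide as a random block and 42 with array weights, fits that called 388 and 2232 probes in all. These fits use the same day 40 arrays, so they are not separate evidence. The random block fit also rests on a negative estimated correlation between arrays of a slide, -0.226. With slide as a fixed block 3 probes were called, none of them the brightest probe of a gene with a symbol. A gene symbol was missing for 28 of the 42 (66.7%), beside 29.7% of all tested probes.

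**Figure D2:**
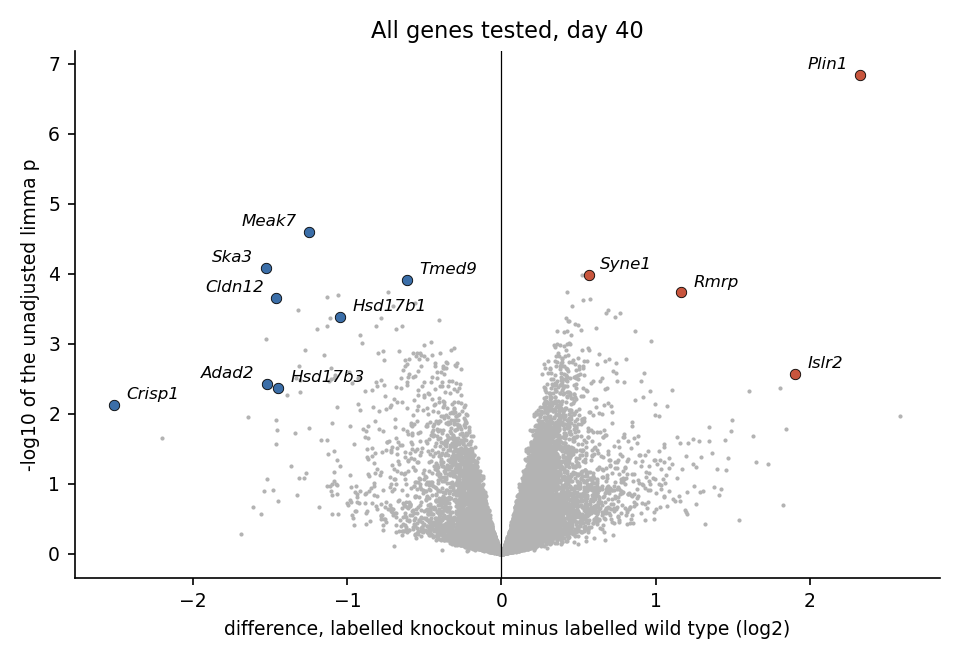
Difference at day 40 (log2, horizontal) against the -log10 of the unadjusted limma p (vertical) for the 17074 genes tested, 1 point per gene, with 12 named genes in colour, red where higher and blue where lower in the arrays labelled knockout. Plin1, at 2.33, stands above all others on the vertical axis, and the remaining named genes did not pass the adjusted threshold.

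Among the genes lower in the arrays labelled knockout, Cldn12, a claudin of tight junctions, read -2.61, -2.65 and -2.54 against -1.16, -1.10 and -1.16 in the arrays labelled wild type. The difference was -1.46 (SE 0.30, limma adjusted p = 0.169 over all arrays and 0.00588 over the day 40 arrays alone), and -1.44 within slide. Meak7, which encodes a lysosomal protein tied to mTOR signalling, read -2.78, -2.71 and -2.73 against -1.42, -1.52 and -1.53. It differed by -1.25 (SE 0.20, adjusted p = 0.118, and 0.0109 in the day 40 fit). Snapin, a SNARE-binding protein of vesicle transport, read -0.58, -0.68 and -0.62 against 0.55, 0.41 and 0.49, a difference of -1.11. In each of these 3 genes the groups were several times farther apart than the arrays within a group. Ska3, a subunit of the complex that holds kinetochores to spindle microtubules, read -3.71, -3.99 and -3.87 against -2.06, -2.52 and -2.40, a difference of -1.53 (SE 0.28). Pramel12, of the PRAME-like family of germ cell genes, differed by -1.06, Rrp36, which acts in ribosomal RNA processing, by -0.82, and 2900005J15Rik by -0.92. The day 40 fit called all 4 of the last named genes. The probe of Pramel12 may also read close relatives, so its value is uncertain. Dock8, an activator of small GTPases, differed by -1.32 at its brightest probe and by -0.12 and 0.14 at its other probes, so the probes of this gene disagree.

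On the arrays of the other ages, both the higher and the lower level of these genes occurred, and at day 60 the lower one occurred under both labels. Cldn12 read -0.65, -1.05 and -0.58 in wild-type-labelled arrays of day 21, near the day 40 arrays labelled wild type, and -0.58, -2.02 and -2.08 in the knockout-labelled arrays of that age. At day 60 it read -2.93, -2.77 and -2.52 under the wild-type label and -2.45, -2.71 and -2.89 under the knockout label, all near the day 40 arrays labelled knockout. Of the 37 probes lower in the day 40 fit, 29 to 35 lay nearer to the knockout-labelled than to the wild-type-labelled day 40 mean on each of the 6 day 60 arrays. On the 3 day 21 arrays labelled wild type the number was 0 or 1, and on knockout-labelled replicates 1, 2 and 3 of day 21 it was 0, 11 and 23. Knockout-labelled replicate 1 of day 21 shared a slide with the wild-type-labelled arrays of that age, and replicates 2 and 3 were on another slide. The part of slide in that split was not tested. Over all genes, 35.2% to 61.4% lay nearer to the knockout-labelled mean on these 12 arrays of the other ages. A probe without a gene symbol, AK086430, showed the same order. It read -5.05, -4.87 and -4.83 against -2.70, -2.69 and -2.73 at day 40, and between -5.36 and -4.52 on all day 60 arrays. The day 40 difference was not called different from that at day 60 for any probe (0 of 35638, with 3181 at an unadjusted p under 0.05), although slide as a random block called 3910 and array weights 158.

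**Figure D3:**
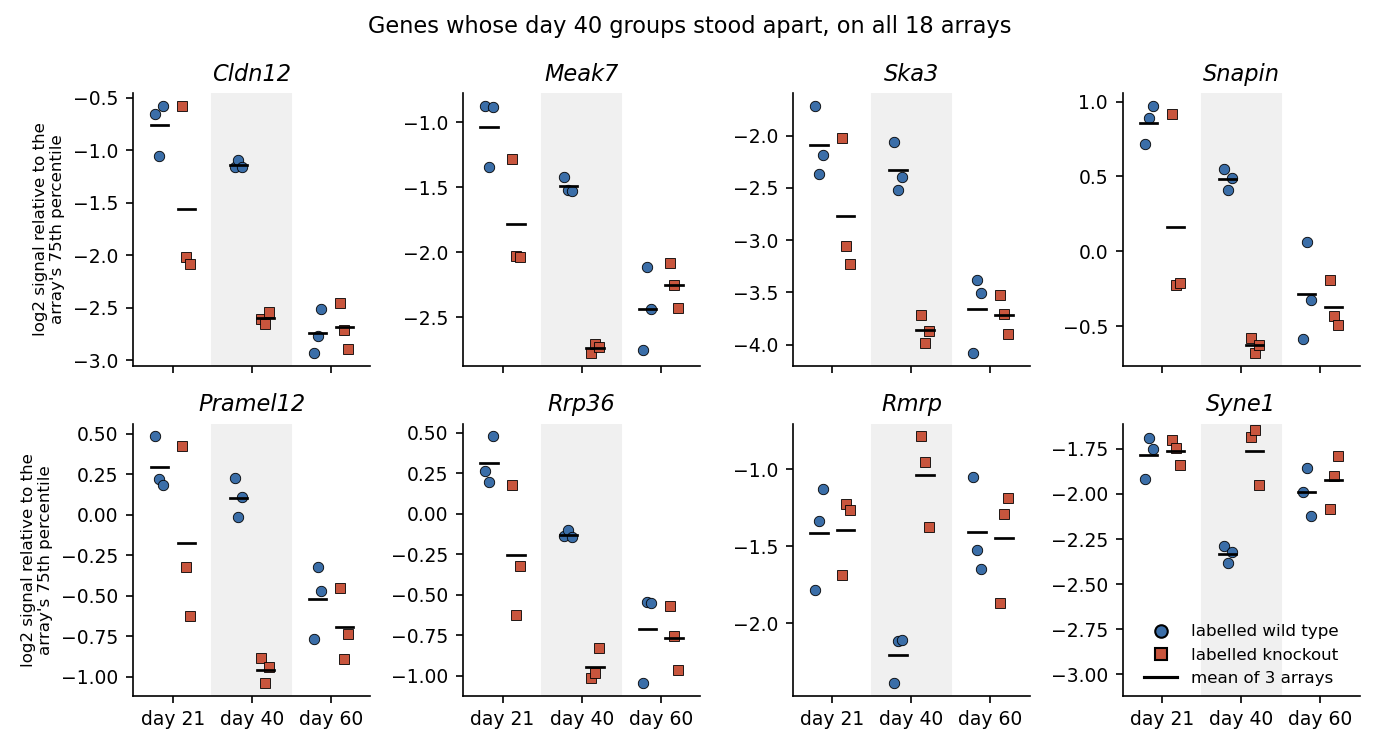
Level of 8 genes (log2 signal relative to the 75th percentile of the array) on all 18 arrays by age, circles for the wild-type label, squares for the knockout label, lines at the mean of 3 arrays and day 40 shaded. For Cldn12, Meak7, Ska3, Snapin, Pramel12 and Rrp36 the day 60 arrays of both labels lie nearer to the day 40 squares than to the day 40 circles, with few exceptions, while for Rmrp and Syne1 the day 40 circles are the lowest of all arrays.

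Among the genes higher in the arrays labelled knockout, Syne1, which encodes nesprin-1 of the nuclear envelope, read -1.69, -1.65 and -1.95 against -2.29, -2.38 and -2.32, a difference of 0.57 (SE 0.11, limma adjusted p = 0.126). Rmrp, the RNA component of RNase MRP, read -0.79, -0.96 and -1.38 against -2.39, -2.12 and -2.11, a difference of 1.17 (SE 0.23, adjusted p = 0.168). Fam98b, a subunit of the tRNA ligase complex, read 1.28, 1.24 and 1.29 against 0.51, 0.63 and 0.65 at its brightest probe. That is a difference of 0.68, while its other tested probe differed by 0.23 (SE 0.16) with overlapping arrays. For all 3 genes the day 40 arrays labelled wild type were the lowest of the 18 arrays: Rmrp lay between -1.87 and -1.05 on the 12 arrays of the other ages, and Fam98b between 1.07 and 1.74. Rbmx, an X-linked RNA-binding protein of splicing, differed by 0.42 at its brightest probe and by 0.50 and 0.48 at its other probes. Syne1 had 5 tested probes, which differed by 0.57, 0.38, 0.26, 0.39 and -0.45. Islr2, a membrane protein with leucine-rich repeats, differed by 1.90 (SE 0.52) but was well above background on only 1 of the 3 arrays labelled wild type. The differences of Islr2, of Prkaa2 (the alpha 2 catalytic subunit of AMP-activated kinase, 0.69), of Nfatc1 (a calcineurin-dependent transcription factor, 0.74) and of Kcnq5 (a potassium channel, 1.11) turned below 0 after normexp background correction. Fam83e, called in the day 40 fit, read 2.25, 2.57 and 2.48 against 1.43, 1.20 and 1.25.

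Steroid synthesis, the main task of Leydig cells, showed no common direction, and 0 of its 24 measured genes were called. The median difference was -0.01, with 11 genes above 0 and 13 below, and the arrays stood apart for 4 genes in each direction (16.7% each way, beside 13.4% of all genes higher and 7.91% lower). The late enzyme Hsd17b3, which makes testosterone from androstenedione in Leydig cells, read -1.66, -1.34 and -0.31 in the arrays labelled knockout and 0.12, 0.60 and 0.33 in those labelled wild type. The difference was -1.45 (SE 0.43, limma adjusted p = 0.273), and knockout-labelled replicate 3 lay nearer to the other group than its fellow arrays did. On the day 60 arrays Hsd17b3 ranged from -1.49 to -0.31 under the wild-type label and from -1.72 to -0.55 under the knockout label, below all day 40 arrays labelled wild type. Hsd17b1, which reduces estrone to estradiol, read -4.91, -4.62 and -4.79 against -3.45, -3.82 and -3.91, a difference of -1.05 (SE 0.23, adjusted p = 0.185). Hsd3b1, the enzyme that turns pregnenolone into progesterone, read 2.56, 2.27 and 2.24 against 2.12, 2.04 and 1.64, a difference of 0.42 (SE 0.20).

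The earlier steps lay within the spread of the arrays. Star, which carries cholesterol into mitochondria, read 0.66, -0.27 and 0.85 against -0.27, 0.32 and 0.08, so the groups overlapped (difference 0.37, SE 0.30). Cyp11a1, which makes pregnenolone, differed by -0.02 (SE 0.28), Cyp17a1 by -0.13 (SE 0.32) and Lhcgr, the receptor of luteinizing hormone, by -0.17 (SE 0.34). With standard errors of this size, moderate differences in either direction would not have been detectable. Of 18 measured Leydig cell markers 10 lay above 0, and the median was 0.06. Ptgds, a prostaglandin D synthase, read 1.91, 2.26 and 2.40 against 3.19, 2.87 and 3.04, a difference of -0.84 (SE 0.25, limma adjusted p = 0.278). In whole testis, fewer cells of a type and less RNA per cell cannot be told apart. Cholesterol synthesis (26 genes, median 0.03), fatty acid synthesis (21 genes, 0.07) and fatty acid oxidation (22 genes, 0.02) had 0 called genes. Members differed in both directions, as Mvd, an enzyme of the cholesterol pathway, at 0.32 and Fdps, a later one, at -0.29.

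**Figure D4:**
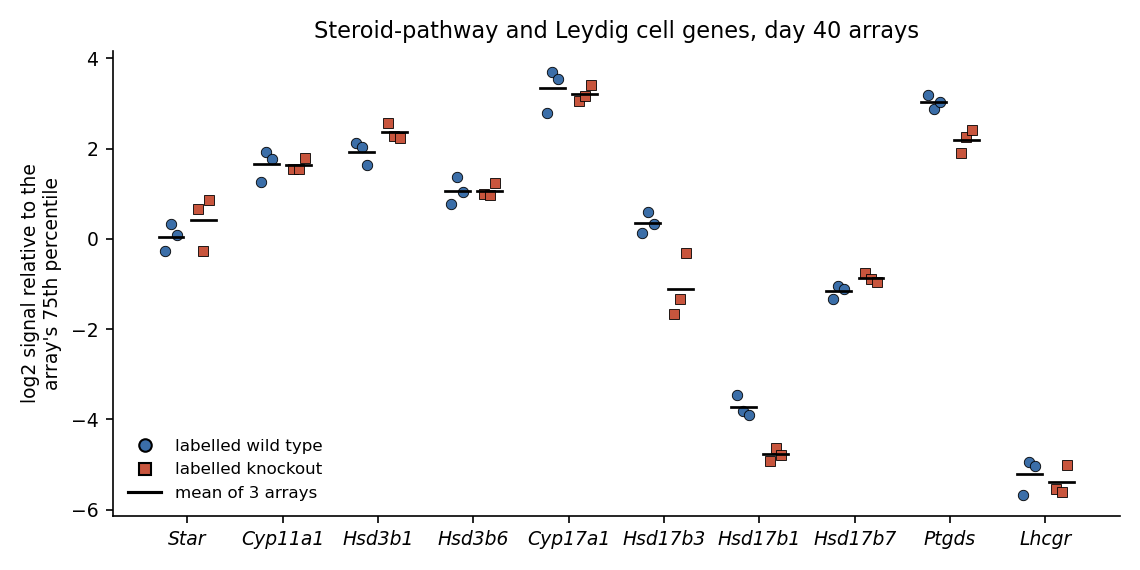
Level of 10 steroid-pathway and Leydig cell genes (log2 signal relative to the 75th percentile of the array) on the 6 day 40 arrays, circles for the wild-type label, squares for the knockout label and lines at the mean of 3 arrays. The groups stand apart for Hsd3b1, Hsd17b3, Hsd17b1, Hsd17b7 and Ptgds and overlap for Star, Cyp11a1, Hsd3b6, Cyp17a1 and Lhcgr, and levels of different genes rest on different probes and are not to be compared.

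Sertoli cell markers leaned toward higher levels in the arrays labelled knockout, without a call. Peritubular cell markers did so in sign and median only, and few of them had groups that stood apart. Of 28 measured Sertoli cell markers, 22 lay above 0, beside 58.6% of all genes, and the median was 0.20, beside 0.04. All arrays labelled knockout were higher for 9 (32.1%, beside 13.4% of all genes) and lower for 1 (3.57%, beside 7.91%). Cst12 read 4.27, 4.28 and 4.16 against 3.73, 3.95 and 3.74, a difference of 0.43 (SE 0.11, limma adjusted p = 0.241). Inhbb, the beta B subunit of inhibin, read 2.09, 2.15 and 2.11 against 1.60, 1.85 and 1.89 (0.34) at its brightest probe, but its other tested probe differed by -0.57 (SE 0.22), so the probes disagree. Dhh, a hedgehog ligand that Sertoli cells send to Leydig cells, differed by 0.37, Shbg, the androgen-binding protein gene, by 0.44, and Fshr, the receptor of follicle-stimulating hormone, by 0.38. The sign of Fshr turned after normexp background correction. The list's mean level was 0.20, 0.16 and 0.20 against -0.12, 0.11 and 0.06, so wild-type-labelled replicate 1 was the lowest array. Of 17 peritubular and smooth muscle markers 14 lay above 0, with a median of 0.29 and Tpm2, a tropomyosin, at 0.56 (SE 0.14). All arrays labelled knockout were higher for 3 of them (17.6%, near the 13.4% of all genes) and lower for 0 (beside 7.91%). The mean levels of this list overlapped between the groups. Of 19 macrophage genes 18 lay above 0, with a median of 0.15 that was 0.0033 within slide and 0.07 after normexp background correction. All arrays labelled knockout were higher for 2 of them (10.5%, beside 13.4% of all genes) and lower for 1 (5.26%, beside 7.91%). The mean levels of this list overlapped too. The 1 lower was Itgam, at -0.74 (SE 0.30), whose other tested probe differed by 0.40 (SE 0.58). The median of the Sertoli list was -0.12 at day 21 and 0.08 at day 60. In retinoid metabolism, Stra6, the receptor that imports retinol, read 1.86, 1.85 and 1.80 against 2.43, 2.33 and 2.34, a difference of -0.53 (SE 0.13, limma adjusted p = 0.237), and Cyp26b1, which degrades retinoic acid, differed by 0.48.

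No germ cell list had a called member. Spermatogonia markers (18 measured, median 0.16) had 4 members with all arrays labelled knockout higher (22.2%, beside 13.4% of all genes) and 2 with all lower (11.1%, beside 7.91%). Of 17 measured genes of the piRNA pathway, which silences transposons in the germ line, 15 lay below 0 and the median was -0.12, with all arrays labelled knockout lower for 8 (47.1%, beside 7.91% of all genes) and higher for 0 (beside 13.4%). Piwil1, the PIWI protein of pachytene spermatocytes, read 1.03, 1.25 and 2.0 against 2.49, 2.55 and 2.56, a difference of -1.11 (SE 0.31, limma adjusted p = 0.259). Tdrd1, a tudor scaffold of the pathway, read 3.79, 3.93 and 3.84 against 4.13, 4.16 and 4.29, a difference of -0.34 (SE 0.12). Piwil2, another PIWI protein, read 1.58, 1.59 and 1.79 against 2.01, 2.13 and 1.84, also -0.34 (SE 0.15). Of 23 early meiosis genes 18 lay below 0, with a median of -0.07. All arrays labelled knockout were lower for 5 (21.7%, beside 7.91% of all genes) and higher for 0 (beside 13.4%). Among the 5 was Spo11, which makes the breaks that start recombination, at -0.32 (SE 0.11). Round spermatid genes (27 measured, median -0.01) and elongating spermatid genes (25 measured, median 0.02) had 0 members whose arrays stood apart in either direction. Tnp2, a transition protein of condensing chromatin, read 5.79, 6.11 and 5.84 against 5.80, 5.30 and 5.65.

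Adad2, a germ cell RNA-binding protein, and Stac3, known from muscle, joined Piwil1 and Hsd17b3 in an uneven pattern among the arrays labelled knockout. Adad2 read 0.05, 0.31 and 1.75 against 2.17, 2.21 and 2.29, and its other probe differed alike (-1.52 and -1.64). Stac3 read -3.37, -3.28 and -1.90 against -1.47, -1.51 and -1.40. Slc25a20, the carnitine carrier of mitochondria, read -1.47, -1.25 and -0.40 against -0.14, -0.15 and -0.21. In all of these genes knockout-labelled replicate 3 was the array nearest to the wild-type label. At day 60 Adad2 read 1.44, 1.21 and 1.54 under the wild-type label and 1.61, 0.43 and 0.14 under the knockout label, so 1 array of the latter lay above all of the former. That array shared a slide with the wild-type-labelled arrays of day 60, and the other knockout-labelled arrays of that age were on another slide. The part of slide was not tested.

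**Figure D5:**
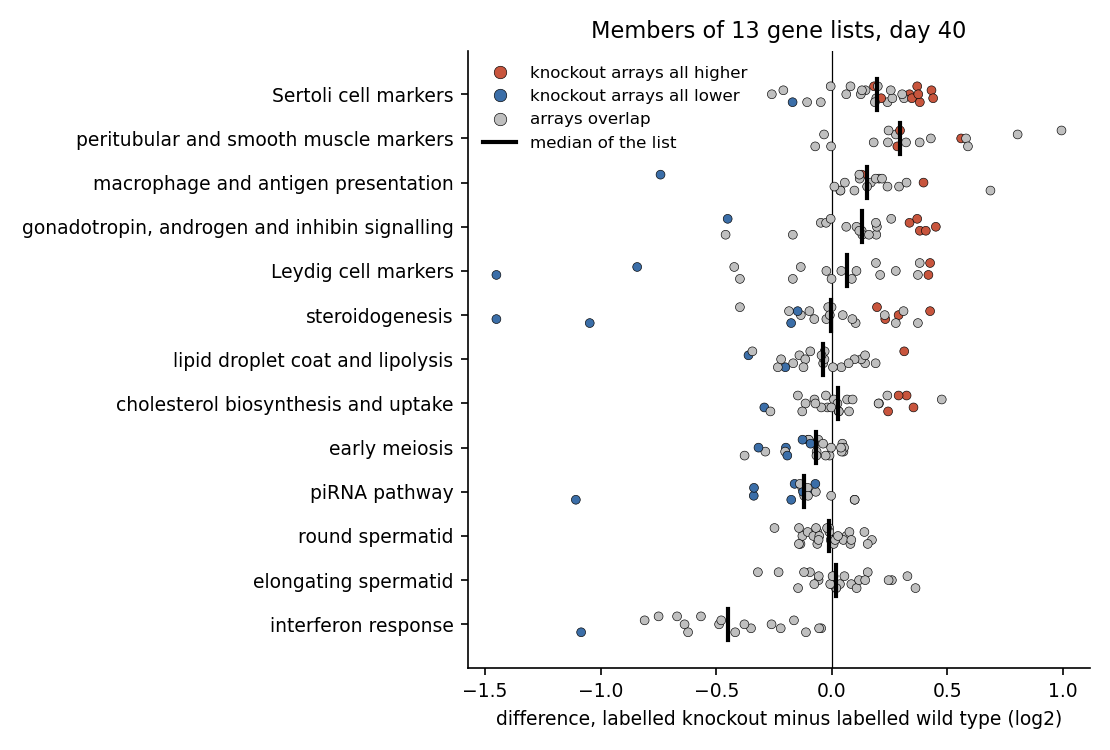
Difference at day 40 (log2, horizontal) of each measured member of 13 gene lists, 1 point per gene, red where all arrays labelled knockout were higher, blue where all were lower and grey where the arrays overlapped, with a bar at the median of the list. The Sertoli cell list has 9 red and 1 blue points, the piRNA list 0 red and 8 blue, and all 18 interferon genes lie below 0.

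In the interferon list a single array moved the whole group. All 18 measured interferon response genes lay below 0, with a median of -0.45 and 0 called. The list's mean level was -2.42 in wild-type-labelled replicate 3 and between -3.93 and -3.71 in the other 5 arrays, and without that array the median was 0.05. Rtp4, an interferon-induced chaperone, read 0.19 in that array, -1.96 and -1.85 in the other arrays labelled wild type, and -1.90, -1.72 and -2.01 in the arrays labelled knockout. Since that array is the only one labelled wild type on its slide, the list's median within slide was -1.37. Crisp1, a secreted protein made by the epididymis, read -6.47, -2.31 and -4.84 in the arrays labelled wild type and -7.02, -7.03 and -7.11 in those labelled knockout, a difference of -2.51 (SE 0.80, limma adjusted p = 0.326). It was the 1 member of 8 measured epididymis markers whose arrays stood apart (12.5% lower, beside 7.91% of all genes, and 0 higher, beside 13.4%). Of those markers 5 lay above 0, with a median of 0.10 and Rnase10, an epididymal secreted protein, at 0.46 (SE 0.24). The list's mean level was -5.09 to -4.94 under the knockout label and -4.91 to -4.72 under the wild-type label. Crisp1, with the largest difference of the list, enters this mean, and a mean without it was not taken. Of the 8 measured red blood cell markers 6 lay above 0 with a median of 0.45, and Hba-a1, an alpha globin, read 0.99, 1.17 and 1.34 against 0.64, -0.06 and 0.15. The median of this list was 0.18 within slide and 0.03 after normexp background correction. At day 21 it was -0.08 and at day 60 -0.26. The part of single arrays and of blood in the other differences was not tested.

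The difference between labels was also compared between ages. A test of the day 40 difference against that of day 21 called 79 probes (0.222%), 73 of them with a lower difference at day 40. Of the 79 probes, 44 were the brightest probe of a gene with a symbol. The median difference of the 79 probes was -0.19 at day 40, 2.28 at day 21 and 0.39 at day 60, and 0 of them were called at day 40. Among the genes described at day 40, Zfp579, a zinc finger protein, differed by 0.46 at day 40 and by -0.33 at day 21 (change 0.79, limma adjusted p = 0.0344). Dbp, an output gene of the circadian clock, differed by 0.36 and by -0.36 (change 0.71, adjusted p = 0.0389). At day 40 Dbp read 1.97, 1.94 and 1.91 under the knockout label and 1.42, 1.65 and 1.68 under the wild-type label. At day 21 its order was the opposite, at 1.76, 1.60 and 1.91 against 2.13, 2.05 and 2.18. The number of probes called in this test dropped to 4 without replicate 1 of the wild-type label, to 4 without replicate 1 or replicate 3 of the knockout label, to 6 and 24 without replicates 3 and 2 of the wild-type label, and to 47 without replicate 2 of the knockout label.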

How the data were processed

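The authors deposited, for each array, spot intensities quantified with Feature Extraction, version 10.7.3.1 per the file headers (the submitters' processing notes name Agilent Feature Extraction 9.1). The deposited intensity is background-subtracted and not scaled between arrays, and the deposited series table holds the same values. Control spots and outlier spots (72 to 137 per array) were left out, spots of a probe were averaged as log2 values, and each array's 75th percentile over non-control spots was subtracted. A probe was tested if every array of some group (of 6, with 3 arrays each) had it well above background, which left 35638 probes. Symbols came from RefSeq by accession, and 14286 of 41174 probes had none. A gene was read from its brightest probe, which left 17074 genes. No coordinates were taken from the array.

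The contrast came from limma 3.58.1 (R 4.3.3; lmFit, eBayes, two-sided) on 6 group means over all 18 arrays, with 12 residual degrees of freedom. In data simulated for this comparison on 35638 probes, 61 of 100 probes changed by 1 and 87 of 100 changed by 2 (log2) were called, with 8 calls among unchanged probes. Lists are described by counts and medians. Normexp used median spot and background signals, where mean spot signals had been planned, with an offset of 50. The named genes are Plin1, genes called in the fits, the 12 highest-ranked by p and 6 largest in each direction among genes whose groups do not overlap (the largest with unadjusted p under 0.01), up to 10 in each direction called in the day 40 fit, up to 4 per list, a fixed set of steroid and droplet genes and the neighbours of Plin1. Fabp4 and the unnamed probes lie outside that rule and were chosen after their values were seen. The comparison and the 35 lists were chosen with earlier results of these data known.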

Additional observations from a re-analysis of the deposited data

Results flagged for a closer look

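The difference between labels at day 40 departed from that at day 21, by a test of the change itself, for Zfp579 (change 0.79) and Dbp (change 0.71). For other genes every array pointed one way at day 40 and the opposite way at another age, and these changes of direction were not called by a test.

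Against day 21, the day 40 differences were 0.42 for Rbmx, 0.53 for Mir100hg, 0.42 for Tle6, 0.38 for Fshr, 0.32 for Mvd, 0.43 for Cst12, 0.44 for Shbg, 0.23 for F11r, 0.28 for Myl9, 0.29 for Lmod1, 0.23 for Tmed2, 0.20 for Ier2, 0.35 for Tsc22d3, 0.35 for Rrp1b and 0.23 for Cycs. Sertoli cell genes (Fshr, Cst12, Shbg) and contractile genes (Myl9, Lmod1) were among them. The other probes of Rrp1b differed by 0.04 and -0.13, and those of Tmed2 by 0.02 and 0.08.

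Against day 60, they were -2.51 for Crisp1, 0.42 for Rbmx, 0.42 for Tle6, 0.28 for Myl9, 0.27 for Sox17, 0.31 for Ccnb1, -0.60 for Cry1, -0.53 for Stra6 and 0.15 for Pex11a. Rbmx, Tle6 and Myl9 stood opposite at both other ages.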

How the results depend on the processing

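Plin1 kept its direction in all 18 alternatives, between 1.96 and 2.40, and was called in 13 (adjusted p from 6.07e-05 to 0.330). It lost the call after normexp background correction (1.96), with slide as a fixed block (2.23), with the replicate block, and on leaving out replicate 2 of the wild-type label or replicate 3 of the knockout label (2.26 each). Over all fits without 1 array it ran from 2.26 to 2.39. The day 40 call count was 1, and became 0 after normexp, 3 with slide as a fixed block, 42 in the day 40 arrays alone, 388 with slide as a random block (177 higher, 211 lower), 2232 with array weights (1280 higher, 952 lower), 5 with an intensity trend and robust prior, and 0 to 1 without 1 array. The count of the test against day 21 was 79, and became 0 after normexp and with slide as a fixed block, 33 after quantile normalization, 47 with no filter on dim probes, 26 with probes above background on all 18 arrays, 2115 with slide as a random block, 676 with array weights, 153 with the trend and robust prior, and 4 to 47 without 1 array. The count of the test against day 60 was 0, and became 1 with probes above background on all 18 arrays, 3910 with slide as a random block, 158 with array weights, and 0 to 5 without 1 array. The fit with slide as a random block had an estimated correlation between arrays of a slide of -0.226. The cause of these shifts was not tested. The replicate numbers were shared between the labels but did not pair the arrays: same-numbered arrays deviated together with r = 0.06, -0.04 and 0.18. With the replicate block Plin1 was 2.33 (limma adjusted p = 0.210), 0 probes were called at day 40, 23 in the test against day 21 and 0 in that against day 60. No result called in the main fit reversed in an alternative, and no alternative that called a result had reversed it. Some genes called in 1 alternative did change sign in another. Islr2, Prkaa2, Nfatc1 and Kcnq5 were among them, and these 4 turned below 0 after normexp background correction. With 3 arrays a group, the number of arrays limits the precision, and dim genes moved most with the background correction.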

Other observations

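Clock, chaperone and energy genes have not been described above. Cry1, a repressor of the circadian clock, read -1.50, -1.43 and -1.48 in the arrays labelled knockout and -0.85, -0.75 and -1.01 in those labelled wild type, a difference of -0.60 (SE 0.16, limma adjusted p = 0.258). Of 19 clock genes 10 lay above 0, and the median was 0.00. Hsp90b1, a chaperone of the endoplasmic reticulum, read 5.44, 5.40 and 5.32 against 5.07, 5.00 and 5.12, a difference of 0.33, and Bag3, a co-chaperone, differed by -0.38. Tmed9, of the p24 family of cargo receptors, read 2.50, 2.56 and 2.57 against 3.11, 3.26 and 3.11, a difference of -0.62 (SE 0.12, limma adjusted p = 0.133). Its relative Tmed2 differed by 0.23 at its brightest probe and by 0.02 and 0.08 at its other probes. Of 28 oxidative phosphorylation genes 0 were called, the median was -0.02, and Sdha, a subunit of complex II, read 2.13, 1.99 and 2.05 against 2.36, 2.30 and 2.32 (difference -0.27), although its other tested probe differed by 0.14 (SE 0.09).

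A probe without a gene symbol, AK019843, was higher in the arrays labelled knockout at day 40, at -1.09, -1.08 and -1.20 against -3.38, -3.82 and -3.63. On the day 21 arrays it took values of both kinds under each label, at -2.08, -3.78 and -1.96 under the wild-type label and -3.99, -3.55 and -0.86 under the knockout label. On the day 60 arrays it lay between -3.62 and -3.40.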
